A study of Mus musculus with 31 samples.

Results

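The subject is a set of 10 genes of fat cell formation and lipid storage, Pparg, Cebpa, Plin2, Plin4, Lpl, Cd36, Fabp4, Angptl4, Mgll and Lipe, in cultured mouse cardiac fibroblasts. They were taken by symbol from a table of read counts that held 24421 genes, and each of the 10 symbols had 1 line in it. The rule names the genes by what they are known to do and uses no measured value. The set and the other gene lists below were nonetheless chosen with earlier results of these data known.

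RNA sequencing covered 29 libraries in 10 groups, with 3 libraries in each group but 3D-2D, which had 2. Every library came from heart fibroblasts of C57Bl/6 mice aged 8 to 12 weeks, with no added agent in the labels. In the 2D group the cells grew flat and in the 3D group in a spatial arrangement; the names 3D-2D, 3D-2D-3D and 3D-2D-2D were read as arrangements that followed each other in that order. A further pair, 2D-5days and 3D-5days, carried a time of 5 days. The last 3 groups were flat cultures labelled 2D with 0.5, 8 or 64 kPa, a stiffness of the substrate. The sources used here do not give the duration of a stage where no time is named, the substrate material, the mice behind a library, or whether replicates came from separate cultures. The p-values below therefore measure only the spread between these libraries. The 2 ATAC-seq samples of the series were not analysed here.

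Pparg and Cebpa encode the transcription factors that together drive the fat cell program. Perilipins such as Plin2 and Plin4 coat the droplets in which cells store triglyceride. Lipoprotein lipase (Lpl) frees fatty acids from circulating lipoproteins, Angptl4 inhibits that enzyme, Cd36 takes fatty acids across the plasma membrane and Fabp4 carries them inside the cell. Hormone-sensitive lipase (Lipe) and monoglyceride lipase (Mgll) work in turn when stored triglyceride is broken down. Several of these genes are not restricted to fat cells: macrophages, capillary endothelium and cardiomyocytes are known to express Cd36, Fabp4 or Lpl.

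RefSeq promoter windows (GRCm38.p6, 250 bases before to 50 bases after a gene start) were found for 7 of the 10 genes, in 11 windows. None was found for Lpl, Fabp4 and Angptl4. The 3 stretches below are shown because Cebpa and Plin2 had the lowest adjusted p-values of the set between 3D and 2D, and because Plin2 and Mgll carry the same 6 letters beside their starts while their levels went in opposite directions in several comparisons. All are written 5′ to 3′ on the strand of the gene. For Cebpa (chr7:35119043-35119292, plus strand) the capitals mark a TATA box, whose first base lies 30 bases before the start.
Cebpa: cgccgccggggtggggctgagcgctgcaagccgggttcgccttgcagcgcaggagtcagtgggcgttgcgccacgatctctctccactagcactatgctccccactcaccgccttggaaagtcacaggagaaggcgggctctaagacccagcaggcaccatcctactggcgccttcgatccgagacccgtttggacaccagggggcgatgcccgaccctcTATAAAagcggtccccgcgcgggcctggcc
For Plin2 (chr4:86670046-86670075, minus strand) and Mgll (chr6:88724356-88724385, plus strand) the capitals mark an E-box, the element bound by basic helix-loop-helix factors such as Myc and Usf1. The start used for the Plin2 window lies inside the span of the gene, chr4:86626910-86670217, and not at its end.
Plin2: cagctgggctatCACGTGgctcggaggctt
Mgll: gggggccgggcaCACGTGgggccccggcgc
The E-box CACGTG, searched on both strands, was in 3 of the 11 windows (Plin2, Mgll and Lipe) and in 7.15% of the 32851 windows of all genes. The TATA box TATAAA was in 2 windows (Cebpa and 1 of the 3 Pparg windows) and in 13.6% of all. The C/EBP element TTNCNNAA was in 2 windows (Cd36 and another of Pparg) and in 40.7% of all. The DR1 element AGGNCANAGGNCA, which the PPAR and RXR pair binds, was in none of the 11 and in 0.381% of all. These are letter matches in the reference sequence and were not measured as binding sites. The motifs were chosen after the sequences were seen, so the shares are a description and no test of enrichment. Pparg had 3 of the 11 windows, and Mgll and Lipe had 2 each.

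The total of gene counts per library ran from 8509987 to 29909400. Of these genes 14036 had enough reads to be tested, and all 10 members were among them. Levels are given as CPM, the reads of a gene relative to the composition-scaled library total, which may be compared between libraries for 1 gene but not between genes. The fibroblast markers Col1a1 and Pdgfra were abundant in every library, and 12 fibroblast markers summed to between 17848 and 77350 CPM. Others of the 12 were uneven. Lum ran from 1.29 CPM in 3D-2D library 1 to 350 CPM in 3D library 2. Dcn ran from 97.9 CPM in 2D-0.5kPa library 3 to 2249 CPM in 3D-5days library 3. Of 10 markers that define mature fat cells, 8 had too few reads to be tested: over all 29 libraries Adipoq had 23 reads, Pck1 69, Cidea 18, Ucp1 17, Cfd 9, Cidec 5, Retn 3 and Lep 0. Adrb3 had 468 reads, was at 0 in no library and was not called in 3D against 2D. At 5 days 1 of the 2 tested markers was called higher and 1 lower in 3D. The 10 markers summed to 2.50 to 3.35 CPM in 3D and 0.999 to 3.31 CPM in 2D. They summed to 1.19 to 1.84 CPM in 3D-5days and 2.36 to 4.37 CPM in 2D-5days. Plin1, the perilipin of fat cells, had 111 reads, of which 34, 46 and 8 were in the 3D libraries and 0 in each 2D library, and it was called higher in 3D against 2D (adjusted p = 0.000200). In most groups of 3, a pair of libraries was more alike than either was to the remaining one. Library 3 stood apart in 2D, 3D, 3D-2D-3D and the substrate groups, and library 1 in the 5-day groups. Xist reads came with at most 7 reads of Y-linked genes in libraries 1 and 2 of the 2D, 3D and 3D-2D-3D groups and in both of 3D-2D. The substrate libraries had Y-linked reads and at most 7 of Xist, and the other libraries had both.

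The first comparison asks what the 3D arrangement does to these genes. Of the 10 genes 8 rose and 0 fell in 3D against 2D, by edgeR's quasi-likelihood test at a Benjamini-Hochberg adjusted p under 0.05. Over all genes tested 26.7% were called higher and 27.3% lower in the same comparison. The median log2 fold change was 3.03 over the 10 genes and 0.03 over all genes. Both adipogenic regulators, both perilipins, all 3 uptake genes and Lipe were higher, while Angptl4 and Mgll were not called. In bulk RNA, a change in the share of cells that express a gene and a change in RNA per cell cannot be told apart.

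**Figure D1:**
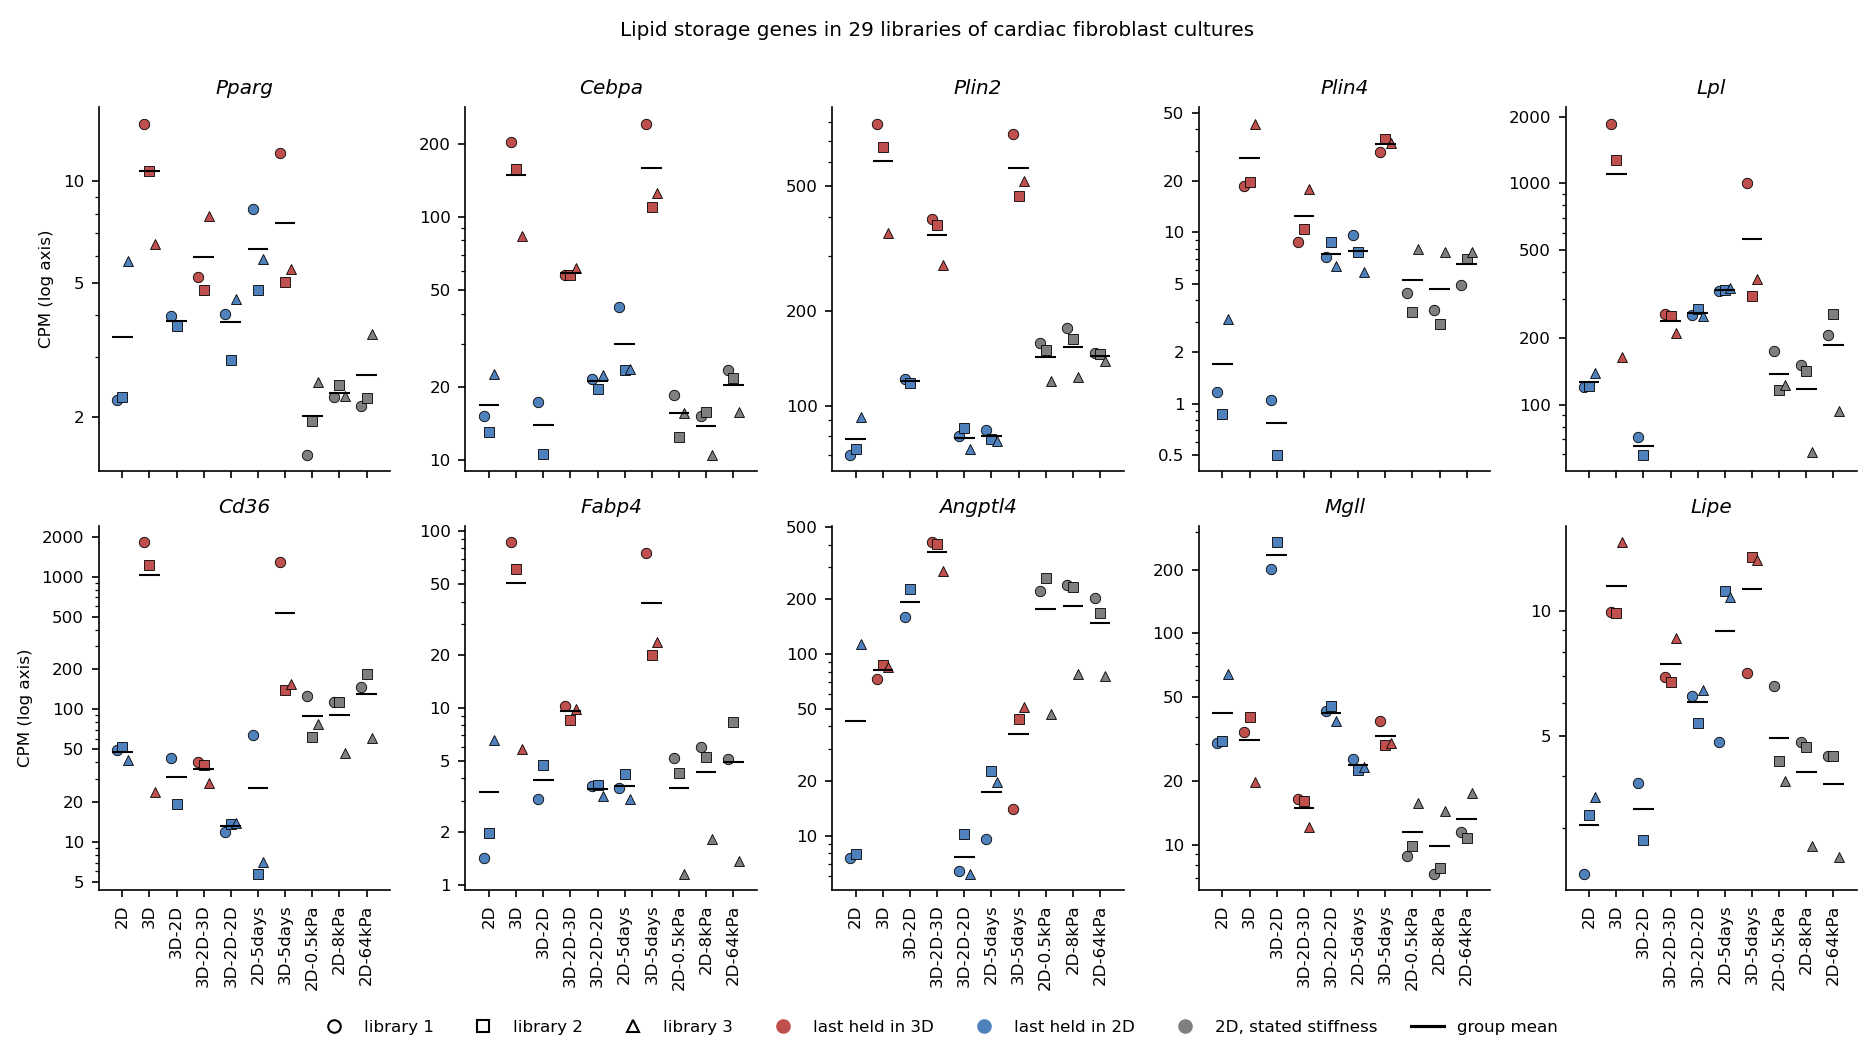
Level of each gene in every library, in CPM on a log axis, with 1 symbol shape per library number, red where the cells were last held in 3D, blue in 2D, grey on a stated stiffness, and a bar at the group mean. Cebpa, Plin2 and Plin4 are higher in every 3D library than in every 2D library, whereas library 3 of 3D lies below all 2D libraries for Cd36 and among them for Fabp4.

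Pparg (chr6:115360879-115490404) stood at 2.25, 2.29 and 5.78 CPM in 2D libraries 1, 2 and 3 and at 14.8, 10.7 and 6.52 CPM in 3D. The groups did not overlap, but library 3 of 2D and library 3 of 3D lay close together. The log2 fold change was 1.59 ± 0.37 (SE, adjusted p = 0.00109). Cebpa (chr7:35119293-35121928) stood at 15.2, 13.0 and 22.6 CPM in 2D and at 203, 158 and 83.3 CPM in 3D. Every 3D library was well above every 2D library, and the fold change was 8.66 on the linear scale (log2 3.11 ± 0.34, adjusted p = 1.61e-07).

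Among the droplet coat genes, Plin2 (chr4:86626910-86670217), which is found on droplets of nearly all cell types, had the lowest adjusted p of the set. It measured 69.9, 73.2 and 91.9 CPM in 2D and 793, 666 and 355 CPM in 3D, a rise of 7.71-fold (log2 2.95 ± 0.23, adjusted p = 9.55e-10). The lowest 3D library was still 3.86 times the 2D library of the same number. Plin4 (chr17:56100587-56109948) measured 1.16, 0.868 and 3.10 CPM in 2D (14, 11 and 87 reads) and 18.5, 19.5 and 43.1 CPM in 3D. Here 3D library 3 was the highest rather than the lowest, and the log2 fold change was 3.88 ± 0.48 (adjusted p = 7.70e-07).

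The uptake genes rose on average but not in every library. Lpl (chr8:68880555-68906932) stood at 120.5, 122 and 139 CPM in 2D and at 1863, 1274 and 165 CPM in 3D, so that 3D library 3 was just above the highest 2D library (log2 3.11 ± 0.58, adjusted p = 0.000125). Cd36 (chr5:17781690-17888959) stood at 49.4, 52.0 and 41.6 CPM in 2D and at 1819, 1230 and 24.0 CPM in 3D. Libraries 1 and 2 of 3D were far above 2D and library 3 was below all of it, so the groups overlapped (log2 4.43 ± 1.11, adjusted p = 0.00197). Fabp4 (chr3:10204342-10208616) stood at 1.41, 1.97 and 6.63 CPM in 2D and at 86.5, 60.8 and 5.87 CPM in 3D (log2 3.84 ± 0.80, adjusted p = 0.000360). Its 3D library 3 lay below 2D library 3 and above the other 2D libraries, so these groups overlapped too.

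Angptl4 (chr17:33774900-33781575), the inhibitor of lipoprotein lipase, was the gene with the least even 2D group. It measured 7.57, 7.89 and 113 CPM in 2D and 72.6, 87.3 and 84.7 CPM in 3D, a log2 difference of 0.90 ± 0.75 that was not called (adjusted p = 0.321). Without 2D library 3 the difference was 3.40 and was called (adjusted p = 0.000484). The 2 lipases differed from each other. Lipe (chr7:25379527-25398486) stood at 2.33, 3.23 and 3.57 CPM in 2D and at 9.95, 9.93 and 14.7 CPM in 3D, without overlap (log2 1.91 ± 0.32, adjusted p = 3.30e-05). Mgll (chr6:88724412-88828360) stood at 30.4, 31.1 and 64.1 CPM in 2D and at 34.1, 40.2 and 19.8 CPM in 3D, with overlapping groups and no call (log2 -0.43 ± 0.30, adjusted p = 0.231).

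The library number split the set. In replicate 3 alone, with 1 library a side that was assumed to vary like the remaining groups, the log2 fold changes were 1.90 for Cebpa, 1.97 for Plin2, 3.81 for Plin4 and 2.06 for Lipe, each called. In the same libraries they were 0.19 for Pparg, 0.26 for Lpl, -0.78 for Cd36 and -0.16 for Fabp4, none called, and -1.68 for Mgll, called lower (adjusted p = 0.00427). In replicates 1 and 2 alone 9 genes were called, all higher, Angptl4 among them (3.35). With the replicate number as a block, 4 genes were called, Cebpa, Plin2, Plin4 and Lipe, where 18.9% of all genes were called higher and 20.7% lower. The blocked log2 fold changes of the 4 that were lost were 1.69 for Pparg (adjusted p = 0.109), 2.64 for Lpl (0.108), 3.47 for Cd36 (0.208) and 3.71 for Fabp4 (0.167). When the most alike pair of libraries in each group was summed to 1 library, 6 genes were called, and Pparg (1.24, adjusted p = 0.0700) and Cd36 (4.05, adjusted p = 0.0569) were not. No share of all genes is given for the fit of replicates 1 and 2 or the summed fit. Their counts are therefore not set against one.

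Markers of other cell types differed between the same libraries. The summed level of 21 macrophage markers was 10284, 7240.5 and 262 CPM in 3D libraries 1, 2 and 3, against 1425 to 1720 CPM in 2D, and 6 of the 21 rose while 1 fell in 3D against 2D. The macrophage genes Adgre1, Cd68 and Csf1r had 135, 946 and 333 reads in 3D library 3, so none of them was at 0 there. In that library, with the lowest macrophage level of all 29, Cebpa (83.3 CPM), Plin2 (355 CPM), Plin4 (43.1 CPM) and Lipe (14.7 CPM) were above every 2D library. So were Pparg (6.52 CPM) and Lpl (165 CPM), whose highest 2D libraries had 5.78 and 139 CPM. Cd36, Fabp4, Angptl4 and Mgll were not. Endothelial markers summed to 78.0 to 117 CPM in 3D and 43.7 to 68.2 CPM in 2D, with 3 of 13 tested markers higher and 0 lower, and at most 1 of the 14 at 0 in a library. Cardiomyocyte markers summed to 68.5 to 209 CPM in 3D and 12.7 to 28.1 CPM in 2D, with 1 of 8 tested markers called higher and 1 lower. The part of these cell types in the levels of any of the genes was not tested.

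**Figure D2:**
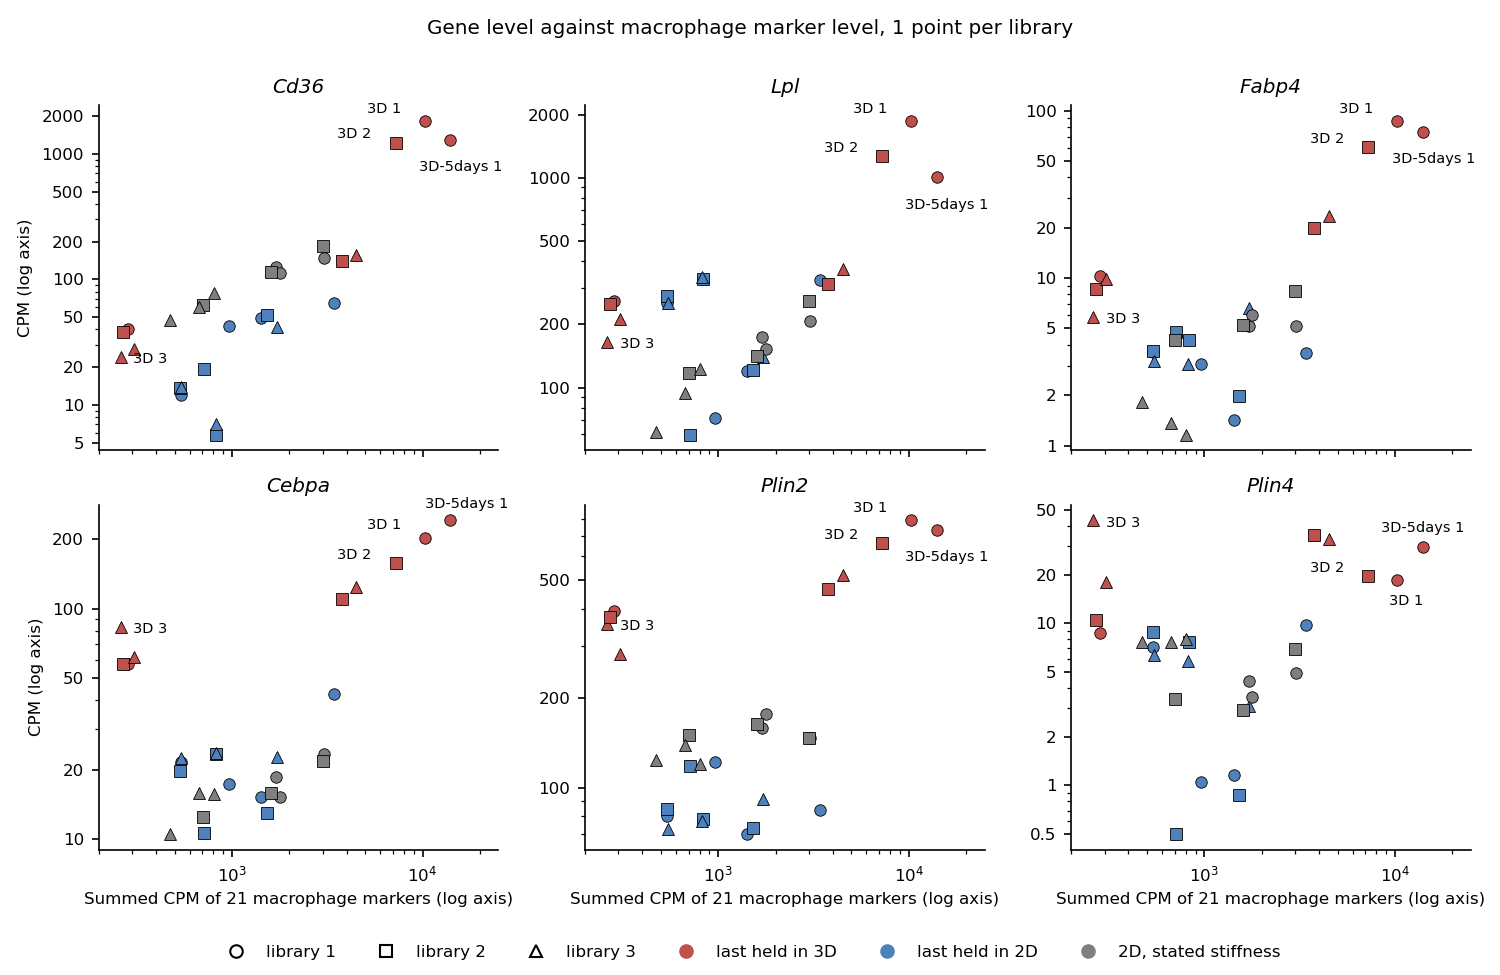
Level of 6 of the genes in each library (vertical, CPM, log axis) against the summed level of 21 macrophage markers in the same library (horizontal, CPM, log axis), with red for libraries last held in 3D, blue for 2D and grey for a stated stiffness. Library 3 of 3D has the lowest marker level, 262 CPM, and there Cd36, Lpl and Fabp4 lie within the range of the flat cultures while Cebpa, Plin2 and Plin4 lie above them.

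The next comparison follows cells moved from 3D to a flat layer. Of the 10 genes 8 fell and 1 rose in 3D-2D against 3D, where 27.7% of all genes were called lower and 28.8% higher (edgeR's quasi-likelihood test). The 8 that fell are the 8 that were called higher in 3D against 2D; the 2 comparisons share the 3D libraries. Plin4 was at 1.04 and 0.502 CPM in the 2 libraries of 3D-2D, from only 25 and 10 reads. Its log2 difference from 3D was -5.10 ± 0.62 (adjusted p = 5.87e-07). Cd36 was at 42.7 and 19.2 CPM (-5.05 ± 1.36, adjusted p = 0.00357), and 3D library 3, at 24.0 CPM, lay between them. Lpl, at 71.7 and 59.6 CPM, was at its lowest group mean (-4.07 ± 0.72, adjusted p = 6.92e-05).

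The regulators and the other storage genes also came down. Cebpa was at 17.4 and 10.6 CPM (-3.40 ± 0.41), Fabp4 at 3.05 and 4.77 CPM (-3.71 ± 0.93), and Plin2 at 122 and 119 CPM (-2.33 ± 0.26). Lipe was at 3.84 and 2.81 CPM (-1.79 ± 0.36) and Pparg at 3.97 and 3.71 CPM (-1.47 ± 0.43), with adjusted p-values of 0.000259 and 0.00559. Leaving out 3D-2D library 2 ended the calls of Pparg (-1.42, adjusted p = 0.0520) and Cd36 (-4.58, adjusted p = 0.0549). With only the 3D and 3D-2D libraries in the fit, Cd36 (adjusted p = 0.0852) and Fabp4 (adjusted p = 0.0630) were not called. Macrophage markers summed to 964 and 709.9 CPM in 3D-2D, and 14 of the 21 fell against 3D. Endothelial markers summed to 25.0 to 35.3 CPM, and 9 of 13 fell; the part of either in these falls was not tested.

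Mgll, the enzyme of the last step of triglyceride breakdown, went the other way. It measured 201 and 269 CPM in 3D-2D, higher than in any library of the other 9 groups, whose highest was 64.1 CPM. The rise over 3D was 7.51-fold (log2 2.91 ± 0.33, adjusted p = 2.66e-07). Angptl4 was also above 3D in both libraries, at 160.0 and 228 CPM, but the difference of 1.25 ± 0.82 was not called (adjusted p = 0.199); with only these 2 groups in the fit it was (1.25, adjusted p = 0.00575).

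Set against cells that had never been in 3D, the 3D-2D cultures differed in 1 member. Mgll rose by 2.48 ± 0.33 on the log2 scale in 3D-2D against 2D (adjusted p = 0.000121), where 6.85% of all genes were called higher and 7.54% lower. Plin2 (0.62 ± 0.24, adjusted p = 0.0811), Angptl4 (2.15 ± 0.83, adjusted p = 0.0831) and Lpl (-0.95 ± 0.62, adjusted p = 0.319) had no overlap between the groups and were not called. Without 2D library 3, Plin2 and Angptl4 were called, at 0.75 (adjusted p = 0.0444) and 4.65 (adjusted p = 0.000227). The other 6 genes had differences between -1.22 ± 0.59 (Plin4) and 0.14 ± 0.85 (Fabp4), and none passed the test. All-gene calls in this comparison also rested on single libraries: 2019 genes were called with all libraries and 171 without 3D-2D library 2.

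**Figure D3:**
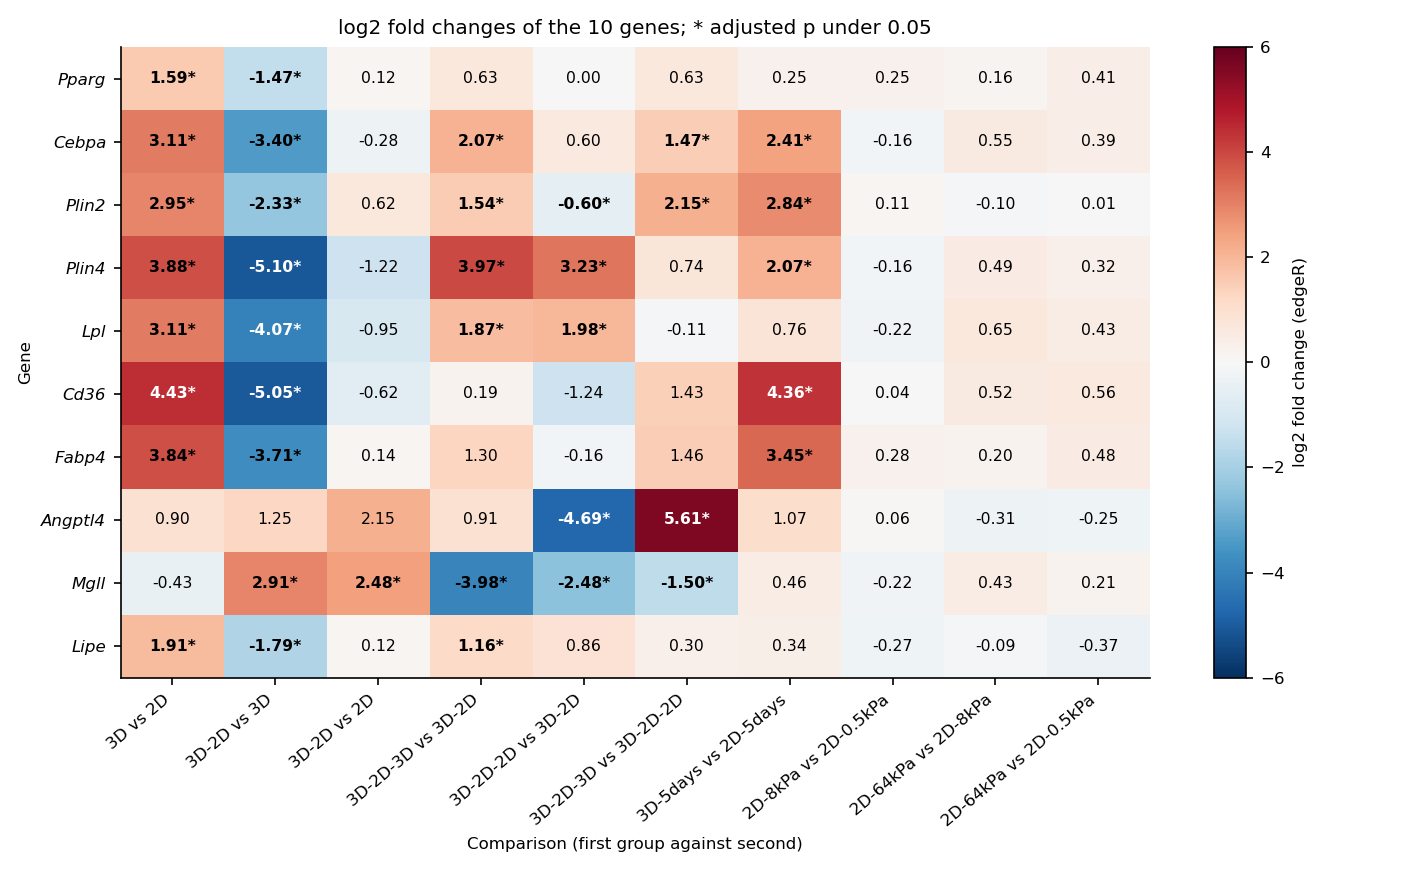
Log2 fold change of each gene (rows) in 10 comparisons (columns), printed in each cell and coloured from blue (lower in the first group) to red (higher), with an asterisk where the adjusted p is under 0.05. The same 8 genes have asterisks in 3D vs 2D, where they are red, and in 3D-2D vs 3D, where they are blue; both columns use the 3D libraries. No cell of the 3 stiffness columns has an asterisk.

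Cells returned to 3D were compared with 3D-2D cells. In 3D-2D-3D against 3D-2D, 5 genes rose and 1 fell, against 24.2% of all genes called higher and 25.0% lower. Plin4 stood at 8.73, 10.5 and 18.0 CPM in 3D-2D-3D, 15.7 times the level in 3D-2D (log2 3.97 ± 0.59, adjusted p = 1.07e-05). Cebpa stood at 57.6, 57.5 and 61.6 CPM (2.07 ± 0.38, adjusted p = 0.000129) and Plin2 at 394, 376 and 281 CPM (1.54 ± 0.25, adjusted p = 2.58e-05). Both were above every 3D-2D library and below the mean of 3D, which was 148 ± 60.5 CPM (SD, n = 3) for Cebpa and 605 ± 225 CPM for Plin2.

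Lpl at 259, 251 and 212 CPM (1.87 ± 0.64, adjusted p = 0.0200) and Lipe at 6.96, 6.76 and 8.64 CPM (1.16 ± 0.36, adjusted p = 0.00961) were the other 2 that rose. Leaving out 3D-2D library 2 ended both calls (Lpl 1.74, adjusted p = 0.128; Lipe 0.95, adjusted p = 0.115), and leaving out 3D-2D library 1 ended that of Lpl (2.00, adjusted p = 0.0824). Cd36 stayed low, at 40.3, 38.4 and 27.7 CPM, and did not pass the test (0.19 ± 1.09). Fabp4 was above 3D-2D in each library, at 10.3, 8.58 and 9.90 CPM, with a difference of 1.30 ± 0.85 that was not called (adjusted p = 0.213) unless only these 2 groups were fitted (adjusted p = 0.00357). Macrophage markers were at their lowest as a group here, 269.7 to 306 CPM summed, and none of the 21 was called against 3D-2D. Endothelial markers were at their highest, 152 to 213 CPM, with 2 of 13 called higher and 1 lower.

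Mgll fell furthest in this step. It stood at 16.5, 16.1 and 12.1 CPM in 3D-2D-3D, a drop of 15.8-fold from 3D-2D (log2 -3.98 ± 0.34, adjusted p = 9.74e-09). Angptl4 reached its highest level of all groups, at 412, 401 and 285 CPM, without overlap with any other group, though its difference from 3D-2D was 0.91 ± 0.85 and was not called (adjusted p = 0.388) unless only these 2 groups were fitted (adjusted p = 0.0161).

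Cells kept flat for a further stage were compared with 3D-2D cells as well. Both 3D-2D libraries had 0 Y-linked reads and the 3D-2D-2D libraries had 663 to 960. The further stage and the source of the cells therefore cannot be told apart in this comparison. In 3D-2D-2D against 3D-2D, 2 genes rose and 3 fell, where 22.9% of all genes were called higher and 23.6% lower. The median log2 fold change was -0.08 over the 10 genes and -0.02 over all genes. Plin4 rose to 7.16, 8.82 and 6.37 CPM (3.23 ± 0.59, adjusted p = 0.000139) and Lpl to 254, 272 and 253 CPM (1.98 ± 0.65, adjusted p = 0.0158). Both therefore rose whether the next stage was 3D or 2D, in 2 comparisons that share the 3D-2D libraries. Angptl4 fell to 6.40, 10.2 and 6.19 CPM, 25.9-fold below 3D-2D (-4.69 ± 0.93, adjusted p = 0.000313), and Mgll fell to 42.7, 45.1 and 38.7 CPM (-2.48 ± 0.33, adjusted p = 3.83e-06). Plin2 fell to 80.0, 85.0 and 72.7 CPM (-0.60 ± 0.24, adjusted p = 0.0410), a call that ended when any 1 of the 5 libraries was left out. Leaving out 3D-2D library 1 or 2 also ended the call of Lpl (adjusted p = 0.0732 and 0.113).

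The other 5 genes were not called in this step. Lipe, at 6.23, 5.39 and 6.46 CPM (0.86 ± 0.36, adjusted p = 0.0561), and Cebpa, at 21.6, 19.7 and 22.5 CPM (0.60 ± 0.37, adjusted p = 0.196), were above both 3D-2D libraries. DESeq2 called 6 members, Lipe among them (adjusted p = 0.0401), where it called 6715 genes in all. With only these 2 groups in the fit 7 members were called, with Lipe and Cebpa. No share of all genes is given for that fit, so its count is not set against one. Cd36 was at 12.0, 13.6 and 13.8 CPM, below both 3D-2D libraries (-1.24 ± 1.12), while Fabp4 (-0.16 ± 0.88) and Pparg, at 4.04, 2.94 and 4.46 CPM, overlapped. Of the marker lists, 9 of 12 fibroblast and 7 of 13 tested endothelial markers were higher and 0 lower in 3D-2D-2D against 3D-2D, and 0 of 21 macrophage markers were called. Pericyte markers summed to 403 to 427 CPM in 3D-2D-2D and 83.4 to 118 CPM in 3D-2D, with 3 of 6 tested higher and 2 lower. Their part in the changes of Plin4, Lpl, Angptl4, Mgll and Plin2 was not tested.

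The groups that were returned to 3D or kept flat were also compared directly. Libraries 1 and 2 of 3D-2D-3D had at most 1 Y-linked read and those of 3D-2D-2D had 663 to 960, so the last arrangement and the source of the cells cannot be told apart for them. In 3D-2D-3D against 3D-2D-2D, 3 genes rose and 1 fell, against 19.8% of all genes called higher and 20.6% lower. Angptl4 differed most, at 366 ± 70.5 CPM (SD, n = 3) against 7.58 ± 2.24 CPM, a log2 difference of 5.61 ± 0.93 (adjusted p = 5.47e-05). Plin2 was 4.43-fold higher (2.15 ± 0.22, adjusted p = 1.08e-07) and Cebpa 2.77-fold higher (1.47 ± 0.33, adjusted p = 0.00108). Mgll was 2.83-fold lower (-1.50 ± 0.31, adjusted p = 0.000453).

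The other 6 genes were not called between these groups. Lpl was at 241 ± 25.1 CPM in 3D-2D-3D and 259.9 ± 10.6 CPM in 3D-2D-2D (-0.11 ± 0.54), with overlapping libraries. Plin4 also overlapped (0.74 ± 0.43, adjusted p = 0.177). Pparg (0.63 ± 0.38), Cd36 (1.43 ± 1.03), Fabp4 (1.46 ± 0.78) and Lipe (0.30 ± 0.31) were higher in every 3D-2D-3D library than in every 3D-2D-2D library but did not pass the test. With only these 2 groups in the fit, Cd36 (adjusted p = 0.000136) and Fabp4 (adjusted p = 5.09e-05) were called. The macrophage markers summed to 536 to 543 CPM in 3D-2D-2D, above the 3D-2D-3D libraries, and the 12 fibroblast markers to 71155 to 77350 CPM, above every other group.

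The 5-day cultures give a second comparison of 3D with 2D, in other libraries. Of the 10 genes 5 rose and 0 fell in 3D-5days against 2D-5days, where 14.9% of all genes were called higher and 17.5% lower (edgeR's quasi-likelihood test). The median log2 fold change was 1.57 over the 10 genes and 0.00 over all genes. Plin2 stood at 84.0, 78.7 and 77.3 CPM in 2D-5days and at 735, 466 and 520.4 CPM in 3D-5days (2.84 ± 0.23, adjusted p = 2.97e-09). Cebpa stood at 42.8, 23.4 and 23.6 CPM and at 242, 110.1 and 125 CPM (2.41 ± 0.34, adjusted p = 8.78e-06). For both genes every pair of same-numbered libraries showed the difference, by 5.92 to 8.74 times for Plin2 and 4.71 to 5.65 times for Cebpa.

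Plin4 rose from 9.69, 7.71 and 5.88 CPM to 29.6, 35.1 and 33.1 CPM (2.07 ± 0.44, adjusted p = 0.000928). Cd36 stood at 64.4, 5.78 and 7.01 CPM in 2D-5days and at 1292, 139 and 156 CPM in 3D-5days (4.36 ± 1.12, adjusted p = 0.00447). Library 1 was about an order of magnitude above the others in both groups, and the ratio within a number was 20.1, 24.1 and 22.2. Fabp4 rose from 3.55, 4.24 and 3.05 CPM to 75.0, 19.9 and 23.6 CPM (3.45 ± 0.82, adjusted p = 0.00248).

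The remaining 5 genes were not called at 5 days. Lpl was at 328, 329 and 337 CPM in 2D-5days and at 1004, 311 and 369 CPM in 3D-5days, so only library 1 was far apart (0.76 ± 0.54, adjusted p = 0.305). Pparg (0.25 ± 0.38) and Lipe (0.34 ± 0.31) overlapped between the groups. Angptl4 was at 9.57, 22.7 and 19.8 CPM and at 14.0, 43.8 and 51.2 CPM (1.07 ± 0.80), and Mgll at 25.5, 22.5 and 23.4 CPM and at 38.5, 29.6 and 30.4 CPM (0.46 ± 0.31). With the replicate block 7 genes were called, where 21.9% of all genes were called higher and 20.3% lower: the same 5 and also Angptl4 (1.04, adjusted p = 0.000362) and Mgll (0.49, adjusted p = 0.00442).

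Macrophage markers summed to 3417, 829 and 825 CPM in 2D-5days and to 14010, 3758 and 4493 CPM in 3D-5days, higher in 3D in each number, and 5 of the 21 rose while 1 fell. Endothelial markers summed to 41.5 to 49.1 CPM and to 127 to 140.4 CPM, and 10 of 13 rose. The part of these markers' cells in the rises of Cebpa, Plin2, Plin4, Cd36 and Fabp4 was not tested. Without library 1 of both groups, an alternative chosen after these values were seen, Cebpa (2.32), Plin2 (2.66), Plin4 (2.33) and Cd36 (4.52) were called and Fabp4 was not (2.58, adjusted p = 0.0523). Leaving out 3D-5days library 1 alone ended the call of Cd36 (2.52, adjusted p = 0.0627). With only the 5-day groups in the fit Cd36 was not called (adjusted p = 0.0683), and with the most alike libraries summed neither Cd36 (adjusted p = 0.0828) nor Fabp4 (adjusted p = 0.0515) was.

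Whether the 3D difference itself differed at 5 days was tested as the difference between the 2 fold changes. It was lower at 5 days for 3 genes and higher for 0, where 13.2% of all genes were called lower and 12.3% higher. The difference of fold changes was -2.35 ± 0.77 for Lpl (adjusted p = 0.0282), -1.80 ± 0.62 for Plin4 (adjusted p = 0.0370) and -1.56 ± 0.44 for Lipe (adjusted p = 0.0121). In each case the 2D-5days level was above 2D: 331 ± 4.77 against 127 ± 10.5 CPM for Lpl, 7.76 ± 1.91 against 1.71 ± 1.21 CPM for Plin4 and 8.96 ± 3.57 against 3.04 ± 0.640 CPM for Lipe (SD, n = 3). In 3D-5days against 3D, Lpl was at 562 ± 385 against 1101 ± 862 CPM and Plin4 at 32.6 ± 2.81 against 27.1 ± 13.9 CPM. Lipe was at 11.3 ± 3.64 against 11.5 ± 2.73 CPM. Libraries 1 and 2 of 2D and 3D had at most 7 Y-linked reads, and the 5-day libraries had 277 to 769. The part of either side, or of the source of the cells, was not tested. The calls of Plin4 and Lpl each ended when certain single libraries were left out, 8 of the 12 for Plin4 and 6 of the 12 for Lpl, and that of Lpl ended with the replicate block (-2.09, adjusted p = 0.246). Plin2 (-0.11 ± 0.30) and Cebpa (-0.71 ± 0.45) had no called difference between the series.

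On substrates of different stiffness no member was called. For 8 against 0.5 kPa 0.00% of all genes were called higher and 0.00% lower, and likewise 0.00% and 0.00% for 64 against 8 kPa and 0.00% and 0.00% for 64 against 0.5 kPa. At an unadjusted p under 0.05 the 3 comparisons had 82, 241 and 175 genes by edgeR, of which 0 were members, and DESeq2 called 0 genes in each. The widest member difference over the 3 comparisons was 0.65 ± 0.54, for Lpl at 64 against 8 kPa. Cd36 was at 126, 62.0 and 77.3 CPM on 0.5 kPa, 113, 114 and 47.2 CPM on 8 kPa and 147, 184 and 60.7 CPM on 64 kPa, with overlap throughout.

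Within a stiffness, library 3 stood apart for several genes. Fabp4 was at 1.16, 1.81 and 1.37 CPM in library 3 of the 0.5, 8 and 64 kPa groups and at 4.29 to 8.37 CPM in libraries 1 and 2. Angptl4 was at 46.5, 78.1 and 75.5 CPM in library 3 and at 168 to 261 CPM in the others, while Mgll was highest in library 3 in each group, at 15.7, 14.4 and 17.5 CPM. With the replicate number as a block, 4 genes were higher at 64 than at 8 kPa: Cebpa (0.56, adjusted p = 0.00467), Lpl (0.65, adjusted p = 0.00197), Cd36 (0.50, adjusted p = 0.00165) and Mgll (0.45, adjusted p = 0.0442). In that fit 3.12% of all genes were called higher and 1.70% lower. Macrophage markers, which summed to 1789, 1602 and 471 CPM on 8 kPa and to 3029, 2993 and 671 CPM on 64 kPa, were also higher at 64 kPa in each number, and their part in these 4 differences was not tested.

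Across the 10 groups the genes fell into different orders of level. Cebpa, Plin2, Plin4 and Fabp4 were highest in 3D and 3D-5days, whose libraries overlapped, and 3D-2D-3D came next, without overlap with the group just above it in the order. For Plin2 and Fabp4 that group was 3D-5days, and 3D-2D-3D did overlap with 3D. The span from the lowest to the highest group mean was 42.2-fold for Plin4, whose lowest group, 3D-2D, had 25 and 10 reads. It was 11.5-fold for Cebpa, 7.72-fold for Plin2 and 15.3-fold for Fabp4. For Cd36 the same 2 groups led, but the 3 substrate groups came next, at 88.6 to 131 CPM, and 3D-2D-2D was lowest at 13.1 ± 1.02 CPM (SD, n = 3). Lpl and Lipe had 3D, 3D-5days and 2D-5days as their first 3 groups, all overlapping. Pparg spanned 5.34-fold, and its neighbours in the order overlapped except at the step from 3D-2D-3D to 3D-2D.

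Angptl4 and Mgll had orders of their own. Angptl4 was highest in 3D-2D-3D, followed without overlap by 3D-2D and then by the 3 substrate groups, and it was lowest in 3D-2D-2D, a span of 48.3-fold. Mgll was highest in 3D-2D, with no overlap with 3D-2D-2D, which was second at 42.1 ± 3.24 CPM, and lowest on 8 kPa at 9.84 ± 3.96 CPM. Over the 10 group means of log2 CPM, which share libraries and the scaling, the Pearson correlation was 0.96 between Cebpa and Fabp4, 0.94 between Plin2 and Fabp4 and 0.93 between Lpl and Lipe. Angptl4 and Mgll had correlations of at most 0.40 and 0.27 with any other member.

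Among 11114 expressed genes, those whose 10 group means followed a member most closely were Ctsb for Cebpa (0.99), a lysosomal protease, and Gpnmb for Fabp4 (0.99), a glycoprotein abundant in macrophages with much lipid. For Cd36 they were Il7r (0.97) and Lgals3 (0.97), for Plin2 Adssl1 (0.98) and Angptl2 (0.97), and for Plin4 Sned1 (0.99) and Sp140 (0.98). Htra3 (0.99) was closest to Lpl, Ap1b1 (0.97) to Pparg, Meis1 (0.98) to Angptl4, Mesdc1 (0.95) to Mgll and Zbtb24 (0.98) to Lipe. These are Pearson correlations over 10 group means and are given as a description.

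The wider lipid genes were counted beside the 10. Of 104 other genes of adipogenesis, droplets, triglyceride synthesis, lipolysis, fatty acid uptake and fatty acid oxidation, 89 were tested. In 3D against 2D 48 rose and 13 fell, with a median log2 fold change of 0.61, where 26.7% of all genes were called higher and 27.3% lower; the list counts that follow stand against the same shares. Fatty acid oxidation genes had 11 of 19 higher and 0 lower. Zfp423, a regulator that commits cells to the preadipocyte state, was at 29.4, 34.4 and 32.6 CPM in 3D and at 1.16, 1.34 and 1.85 CPM in 2D (4.42 ± 0.20, adjusted p = 4.27e-13), and unlike Cd36 it was even over the 3 libraries of 3D.

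The lists did not all go one way. Adipogenic regulators had 14 of 25 higher and 5 lower in 3D against 2D, with Klf5, an early activator of the program, among those that fell (-4.05 ± 0.64). Triglyceride synthesis had 5 of 15 higher and 4 lower, with Mogat2, a monoacylglycerol acyltransferase, lower by -4.25 ± 0.49 on the log2 scale. Droplet proteins had 8 of 11 higher and 1 lower, lipolysis genes 8 of 15 and 0, and uptake genes 12 of 17 and 3, with Slc27a6, a fatty acid transporter, at 3.52 ± 0.48 and Cav1, the caveolar coat protein, at -4.35 ± 0.60. These lists include the 10 genes where they belong.

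In the other comparisons the 89 genes split as follows. They were 10 higher and 48 lower in 3D-2D against 3D (28.8% and 27.7% of all genes) and 40 and 10 in 3D-2D-3D against 3D-2D (24.2% and 25.0%). In 3D-2D against 2D they were 5 and 14 (6.85% and 7.54%), and these 19 calls became 3 with only the groups compared, 44 with the replicate block and 3 to 28 with 1 library left out. They were 39 and 9 in 3D-2D-2D against 3D-2D (22.9% and 23.6%), 26 and 25 in 3D-2D-3D against 3D-2D-2D (19.8% and 20.6%), and 34 and 17 at 5 days (14.9% and 17.5%). None was called in a stiffness comparison. In 3D-2D-2D against 3D-2D 41 of the 89 were not called, and of the 10 genes 2 were higher, 3 lower and 5 not called.

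**Figure D4:**
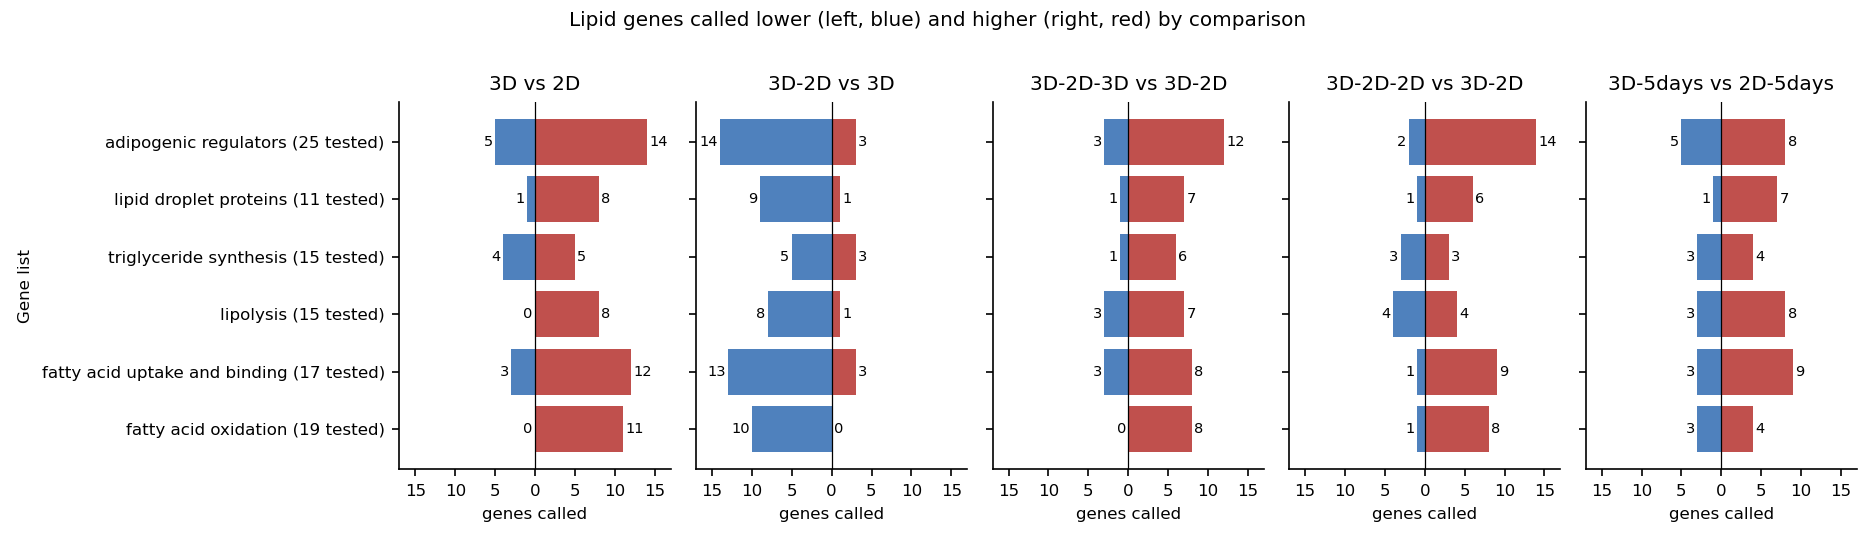
Number of tested genes called higher (red, right) and lower (blue, left) in each of 6 lipid lists, for 5 comparisons; list sizes after filtering are in the row labels. Fatty acid oxidation has 11 higher and 0 lower in 3D against 2D and 0 higher and 10 lower in 3D-2D against 3D, whereas triglyceride synthesis is split in both.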

How the data were processed

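RNA was measured in 29 libraries. The values were deposited by the authors as raw counts of reads, with 1 line per gene and 1 column per library. TopHat, HTSeq, Bowtie and MACS2 and the mm10 build are named in the submitters' processing notes, with no version or role; the sources used here name no annotation or strand setting. The 5 summary lines of the table, 21.8% to 34.1% of a library's total, were left out, and 0 columns were unused.

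From the counts, edgeR (version 4.0.16, run in R version 4.3.3, limma version 3.58.1) fitted all 29 libraries with 1 mean per group, after its expression filter (14036 genes) and TMM scaling (factors 0.868 to 1.10). Differences were tested by its quasi-likelihood F test, adjusted by Benjamini-Hochberg over all genes tested and called at an adjusted p under 0.05; SE is the log2 fold change divided by the root of F. CPM uses the scaled library sizes, and log2 CPM a prior count of 2. The procedure was tested on simulated data. Alternatives were RLE size factors, library totals alone, other filters, DESeq2 1.42.0, only the groups compared, a replicate block, replicates 1 and 2 or replicate 3 only, each library left out, and, chosen after seeing the data, 5-day replicates 2 and 3 only and the most alike libraries summed.

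All 10 genes are named whatever their call. Of the wider lipid genes, up to 3 called genes with the largest rise and 3 with the largest fall per comparison could be named (1 result is not reported here), and for each member the 2 genes with the most similar group means. The members and all gene lists were chosen with earlier results of these data known, and the promoter motifs after the sequences were seen. Groups and replicate numbers came from the labels. Same-numbered libraries deviated together (correlations of 0.14 to 0.23 in 3D and 2D, 0.29 to 0.57 at 5 days and 0.19 to 0.75 on the substrates). The main fit had no replicate term in any comparison, so its p-values use no pairing. Libraries were taken as paired in these comparisons from the data and not from a stated design. That pairing enters only the alternative with the replicate block. In the other comparisons the libraries were not taken as paired. A library was closest to its own number in 2 of 3 pairs for 3D and 2D and 1 of 3 at 5 days. On the substrates this held in 2 or 3 of 3 pairs. The pairing therefore stays uncertain.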

Additional observations from a re-analysis of the deposited data

Results flagged for a closer look

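The 3D difference was itself different at 5 days for 3 genes, by edgeR's test of the difference between the fold changes with Benjamini-Hochberg adjustment over all genes. The change was -2.35 on the log2 scale for Lpl (adjusted p = 0.0282), -1.80 for Plin4 (adjusted p = 0.0370) and -1.56 for Lipe (adjusted p = 0.0121). The call of Lipe held in all 12 leave-outs of a single library, with values of -1.86 to -1.31, while Plin4 ranged from -2.66 to -1.26 and Lpl from -3.08 to -1.72, and both lost the call in some of them. Lipe lost the call with only the groups compared (adjusted p = 0.0539), in replicates 1 and 2 alone (0.0735), in replicate 3 alone (0.0585) and with the most alike libraries summed (0.145), with values of -1.57, -1.49, -1.77 and -1.54; none of the 10 genes was called with only the groups compared or with the most alike libraries summed.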

How the results depend on the processing

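RLE size factors, library totals alone, a minimum of 1 CPM in any 3 libraries, no filter and DESeq2 left the number of members called within 1.5 times in all 11 comparisons. With only the groups compared, members called went from 1 to 2 in 3D-2D against 2D and from 3 to 0 for the difference between the 3D effects. With the replicate block they went from 8 to 4 in 3D against 2D, from 1 to 6 in 3D-2D against 2D, from 4 to 7 in 3D-2D-3D against 3D-2D-2D and from 0 to 4 at 64 against 8 kPa; 3D-2D against 2D and 3D-2D-3D against 3D-2D-2D were not taken as paired. Replicates 1 and 2 alone gave 3 in 3D-2D against 2D. Replicate 3 alone gave 5 in 3D against 2D, 1 in 3D-2D-3D against 3D-2D-2D and 2 at 5 days, with Cd36 at -0.78 and Fabp4 at -0.16 in 3D against 2D and Cd36 at 5.24 for the difference between the 3D effects, each opposite in sign to the value over all libraries. With the most alike libraries summed, 3 were called in 3D-2D-2D against 3D-2D, 3 at 5 days and 0 for the difference between the 3D effects. Leaving out 1 library gave 1 to 3 in 3D-2D against 2D, 3 to 4 in 3D-2D-2D against 3D-2D and 1 to 4 for the difference between the 3D effects. The cause of these changes was not tested, including where fewer libraries were used.

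Counts over all genes moved more. In 3D-2D against 2D 2019 genes were called, 523 with only the groups compared, 6264 with the replicate block, 85 with the most alike libraries summed and 171 to 2947 with 1 library left out. In 3D against 2D 7576 were called and 4929 in replicate 3 alone. In 3D-2D-3D against 3D-2D-2D 5677 were called, 1562 in replicate 3 alone and 3198 with the most alike libraries summed. At 5 days 4548 were called, 2991 with only the groups compared, 1534 in replicate 3 alone and 2234 with the most alike libraries summed. For the difference between the 3D effects 3583 were called, 2156 with only the groups compared, 2230 in replicates 1 and 2 alone and 1150 with the most alike libraries summed. The replicate block gave 2 genes at 8 against 0.5 kPa and 608 at 64 against 8 kPa, and replicates 1 and 2 alone gave 1 at 64 against 8 kPa, against 0. With library totals alone the median of all genes shifted by 0.13 in 3D against 2D and at 5 days, by -0.14 in 3D-2D against 3D and 3D-2D-2D against 3D-2D, and by 0.23 in 3D-2D-3D against 3D-2D-2D. The share of called genes that were higher became 71.5% in 3D-2D-3D against 3D-2D-2D, from 49.0%, 37.4% in 3D-2D-2D against 3D-2D, from 49.2%, and 60.8% at 5 days, from 46.1%, with the number of members called the same as with TMM in all 11 comparisons.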

Other observations

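Some lipid genes outside the 10 also differed between the groups. G0s2, an inhibitor of adipose triglyceride lipase, stood at 71.3, 69.7 and 66.9 CPM in 3D-2D-2D and at 2.97 and 2.11 CPM in 3D-2D (log2 4.76 ± 0.59, adjusted p = 1.85e-06 by edgeR's quasi-likelihood test with Benjamini-Hochberg adjustment). In 3D-2D-3D it stood at 6.62, 6.58 and 12.2 CPM, lower than in 3D-2D-2D by -3.03 ± 0.45 on the log2 scale. Klf15, a transcription factor of adipogenesis and fasting metabolism, was at 18.5, 16.3 and 18.5 CPM in 3D-2D-2D and at 0.627 and 0.853 CPM in 3D-2D (4.58 ± 0.65, adjusted p = 8.86e-06). Both genes had their lowest group mean in 3D-2D, as did Plin4 and Lpl of the 10 genes, while Mgll had its highest there. Between 3D-2D-2D and 3D-2D the further stage and the source of the cells cannot be told apart.

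Pdk4, a kinase that slows glucose oxidation, was at 36.8 and 37.5 CPM in 3D-2D and at a mean of 9.34 CPM in 2D, without overlap (1.97 ± 0.41, adjusted p = 0.00356). The comparisons with 3D-2D all share its 2 libraries.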
